A study of Mus musculus with 3 samples.

Results

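The genes described here encode the proteins of the cytosolic ribosome of mouse skeletal muscle. They were chosen by name: Rplp0, Rplp1, Rplp2, Rpsa, and every symbol made of Rpl or Rps, digits and then nothing, a, x, l or rt, which leaves out pseudogenes named -ps and the Rps6k kinases. Names matched 84 of 42258 rows, and 82 of these had a mean CPM (read counts scaled to library size) of 1 or more over the 3 libraries. The 82 genes hold 30 small subunit genes, 43 large subunit genes, 3 stalk genes and 6 paralogs or retroposed copies (Rpl3l, Rpl6l, Rpl37rt, Rps27l, Rps27rt and Rps4l). The other 2 rows were Rpl10l, listed at 0 in each library, and Rpl39l, with 0 counts in aged EPA, 9 in aged control and 3 in young, where 3 counts is taken as the floor of detection.

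RNA came from the gastrocnemius and plantaris muscles of male mice and was sequenced as 3 libraries, each a pool of several animals. Aged EPA is a pool of 6 mice of 87 weeks, labelled C57BL/6J, fed 1 wt% EPA (the omega-3 eicosapentaenoic acid) over 12 weeks that began at 75 weeks of age. Aged control is a pool of 6 mice of the same strain label and age, on a diet deprived of EPA for the same 12 weeks. Young is a pool of 3 mice of 24 weeks, labelled C57BL/7J, whose diet is not stated. No group has a second library, so differences are described by size without any test, and age, strain label, diet and the number of pooled mice cannot be told apart between young and aged libraries.

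A cytosolic ribosome joins a small subunit, which reads the mRNA, to a large subunit, which forms peptide bonds. Its proteins are needed in equal numbers, apart from the stalk proteins, and their genes are among the most steadily transcribed in any cell. Most of the mRNAs begin with a run of pyrimidines, the 5′ terminal oligopyrimidine (TOP) tract, through which the kinase mTORC1 and the protein Larp1 set how much of each mRNA is translated or stored. In muscle, ribosome content limits how much protein a fibre can make, and it is known to fall with disuse and to rise with loading.

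The TOP tract is a feature that the choice by name did not use, and start windows are shown for genes whose changes are described below. Each runs from 20 bases before to 20 bases from the annotated RefSeq start (GRCm38.p6), 5′ to 3′ on the strand of the gene, and capitals mark the longest run of a C followed by at least 5 C or T. Rpl7a is at chr2:26910787-26910826 (plus), Rps27 at chr3:90213629-90213668 (minus), Rps27rt at chr9:114982720-114982759 (minus), Rpl15 at chr14:18270967-18271006 (minus), Rps10 at chr17:27635225-27635264 (minus), Rpl35 at chr2:39005112-39005151 (minus) and Rpl41 at chr10:128549149-128549188 (minus).
Rpl7a: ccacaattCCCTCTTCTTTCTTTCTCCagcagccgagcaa
Rps27: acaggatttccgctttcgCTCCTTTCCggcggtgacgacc
Rps27rt: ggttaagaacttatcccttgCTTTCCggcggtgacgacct
Rpl15: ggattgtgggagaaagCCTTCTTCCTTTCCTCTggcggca
Rps10: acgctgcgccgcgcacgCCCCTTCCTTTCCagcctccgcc
Rpl35: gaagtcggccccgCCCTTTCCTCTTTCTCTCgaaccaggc
Rpl41: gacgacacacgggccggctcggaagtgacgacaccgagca
The run spans 19 bases in Rpl7a, 17 in Rpl15 and 6 in Rps27rt, and Rpl41 has none in this window. RefSeq windows were held for 60 of the 82 genes, and 40 of the 60 (66.7%) had such a run on the strand of the gene in any of their windows, against 34.8% of 9632 other compared genes. The run could lie before or after the start, so these are not shares of mRNAs that begin with a TOP tract. The motif CCGGAAG, the core of ETS family binding sites, stood on either strand of the promoter (250 bases before to 50 after the start) in 24 of 60 (40%), against 19.8% of the others. Its reverse complement, CTTCCGG, opens with pyrimidines, so both searches can hit the same bases.

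The libraries were of like depth, between 55969822 and 57622886 counts. Counting error is therefore small for most of these genes, and the 95% intervals below cover counting error only, neither mice nor preparations. Markers of muscle fibres, the labelled tissue (6 of 6 found), summed to 112369 CPM in aged EPA, 111507 CPM in aged control and 99077 CPM in young. Marker sums of other cell types also differed: red blood cell genes (5 of 5) summed to 565, 561 and 1508 CPM in aged EPA, aged control and young, endothelial genes (5 of 5) to 268, 279 and 348 CPM, and B and plasma cell genes (6 of 6) to 234, 221 and 150.1 CPM. Sums for fibroblast (1120, 1212 and 1288 CPM), adipocyte (136, 103 and 159.8 CPM), macrophage (128, 127 and 117 CPM) and Schwann cell genes (178, 163 and 157 CPM) are given in the same order of libraries, and each list had 5 of 5 genes found and none at 0. T cell genes summed to 0.366, 0.355 and 0.315 CPM, with Cd3d at 0 in all 3 libraries, Trac at 0 in both aged ones, Cd8a in aged control and Cd3e in young. The part of these cells in the ribosomal protein values was not tested, and in bulk tissue fewer cells of a type and less RNA per cell cannot be told apart.

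Ribosomal protein mRNAs as a group were lower in aged control muscle than in young muscle. The 82 genes took 0.999% of all counts in aged control and 1.199% in young, and summed to 10128 and 12128 CPM. The median log2 change of (CPM + 1) was -0.29, with quartiles of -0.40 and -0.19, beside -0.01 for all 12966 compared genes. Lower values stood in 79 of the 82 genes and higher ones in 3, where 52.4% of all compared genes were lower and 47.5% higher. At least 1.2-fold lower in aged control were 45 of 82 (54.9%), where 14.6% of all compared genes were called, and none was at least 1.2-fold higher, where 12.6% of all were. Past 1.5-fold, 7 genes were lower (2.55% of all compared genes) and none higher (2.69%). The shift was thus broad and shallow, spread over nearly the whole group.

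**Figure D1:**
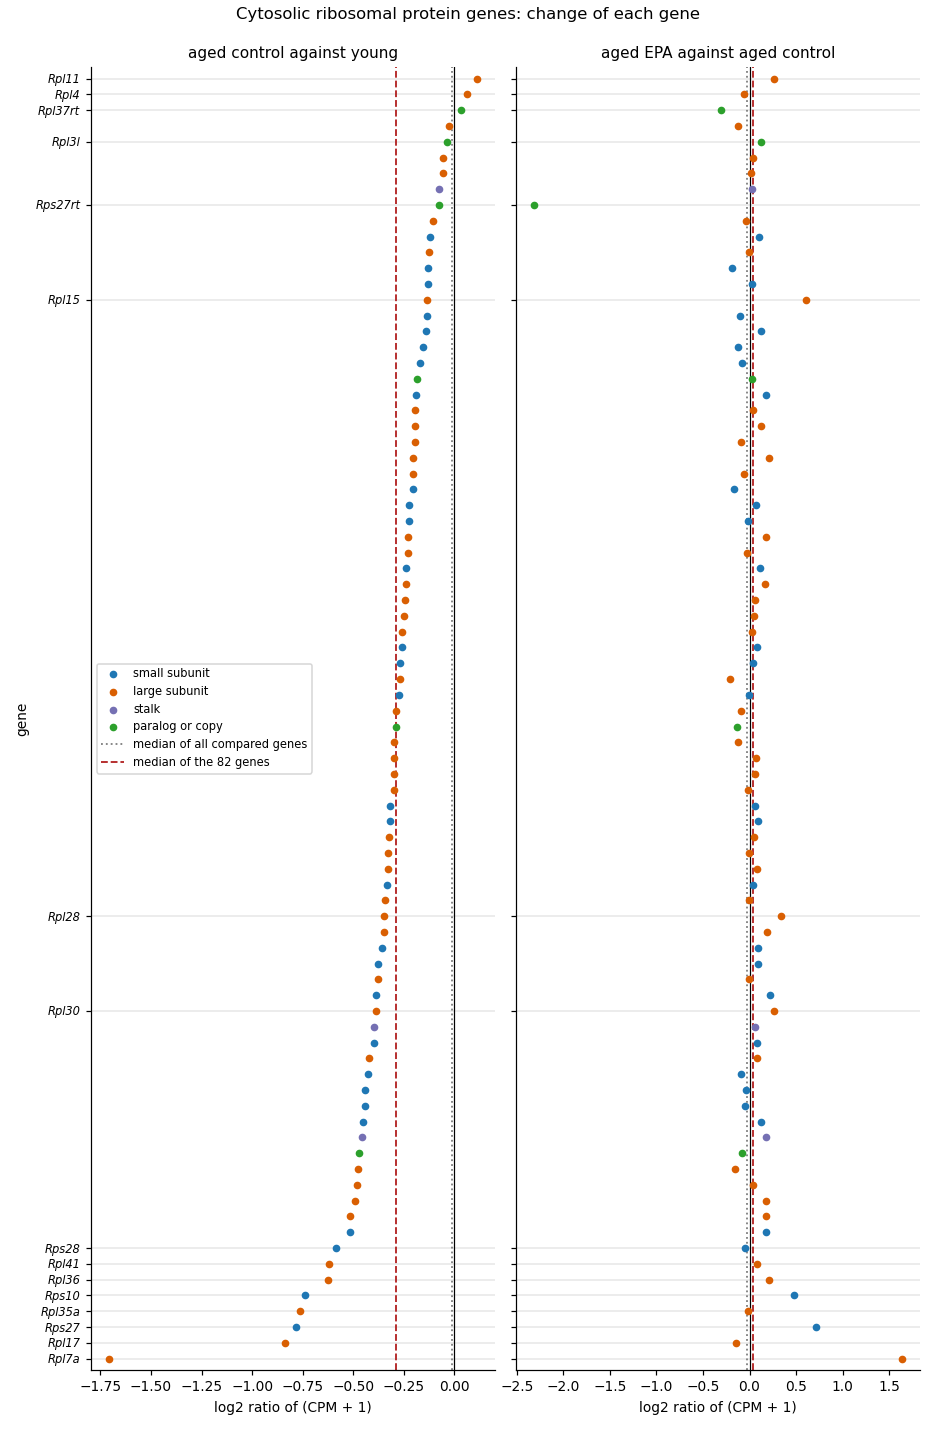
Log2 ratio of (CPM + 1) for each of the 82 genes (rows, ordered by the left panel, with 16 genes labelled) in aged control against young (left) and aged EPA against aged control (right), coloured by subunit, with the median of the 82 genes (dashed) and of all compared genes (dotted). On the left 79 points lie below 0, with a median of -0.29; on the right 50 lie above 0, with Rpl7a and Rps27rt far from the rest. Both panels use the aged control library, and each x axis has its own range.

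Small subunit genes were lower without exception, 30 of 30, where 52.4% of all compared genes were lower. Their median log2 change was -0.30, and 17 (56.7%) were at least 1.2-fold lower, beside 14.6% of all compared genes. Rps27, a small zinc finger protein, stood at 69.6 CPM in aged control, against 120.4 CPM in young (log2 -0.78). Summed with its copy Rps27rt, whose reads can hardly be told from its own, the log2 change was -0.51. Rps10, on the mRNA entry side of the head and mutated in some humans with Diamond-Blackfan anaemia, stood at 61.7 and 103.7 CPM (log2 -0.74; count ratio on the log2 scale -0.73, with a 95% interval from counting of -0.79 to -0.67). Rps28 stood at 28.8 CPM in aged control, against 43.6 CPM in young (log2 -0.58), and Rps13 at 70.05 and 100.8 CPM (log2 -0.52). At the other end were Rps20 (104.8 and 114 CPM, log2 -0.12) and Rps27a, whose protein is made fused to ubiquitin (43.9 and 48.04 CPM, log2 -0.13). Rpsa, which is also known as a laminin receptor precursor, had one of the highest levels and one of the smallest changes of the subunit, 381 CPM in aged control and 417 CPM in young (log2 -0.13). Rps6, the S6 kinase substrate, lay near the middle at 166 and 199 CPM (log2 -0.26).

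Of the 43 large subunit genes, 41 were lower in aged control, where 52.4% of all compared genes were. Their median log2 change was -0.30, and 24 (55.8%) were at least 1.2-fold lower, beside 14.6% of all compared genes. The lowest relative to young was Rpl7a, a protein of the solvent side of the large subunit (chromosome 2, 26910764 to 26913318, plus strand), at 10.3 CPM in aged control, against 35.9 CPM in young (log2 -1.71; count ratio on the log2 scale -1.84, with a 95% interval from counting of -1.98 to -1.71). Rpl17, which lines the end of the tunnel that the new chain leaves through, stood at 10.03 and 18.7 CPM (log2 -0.83). Rpl35a, also mutated in some human anaemias of the Diamond-Blackfan type, stood at 21.3 CPM in aged control, against 36.9 CPM in young (log2 -0.76). These 3 are low in level, so their pseudocount matters more than elsewhere.

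Other large subunit genes followed. Rpl41, a very short and highly basic peptide that bridges the subunits, stood at 136 CPM in aged control, against 210.2 CPM in young (log2 -0.62; count ratio on the log2 scale -0.61, with a 95% interval from counting of -0.65 to -0.57). Rpl35, beside the tunnel exit, stood at 153.5 and 216 CPM (log2 -0.49), Rpl36 at 66.1 and 102.4 CPM (log2 -0.62) and Rpl37a at 68.8 and 98.8 CPM (log2 -0.52). Higher in aged control were Rpl11, which with Rpl5 and 5S rRNA forms the particle that restrains Mdm2 (104.6 and 96.7 CPM, log2 0.11), and Rpl4, which forms part of the tunnel wall (578 and 554 CPM, log2 0.06). Both changes were small, and that of Rpl4 was 0.02 when whole counts were divided by the library total. Rpl5, the partner of Rpl11, was lower, with 162 CPM in aged control and 177 CPM in young (log2 -0.13).

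The stalk, the mobile arm that recruits the GTPase factors of elongation, is built from Rplp0 and pairs of Rplp1 and Rplp2. Rplp1 stood at 269 CPM in aged control, against 355 CPM in young (log2 -0.40), and Rplp2 at 76.3 and 105.2 CPM (log2 -0.46). Rplp0 differed far less, with 575 CPM in aged control and 606 CPM in young (log2 -0.08). The mRNAs of both small acidic proteins thus had larger log2 changes than that of the scaffold they sit on.

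The 6 paralogs and copies had a median log2 change of -0.13, with 5 lower and 1 higher (Rpl37rt, log2 0.03). Rpl3l, the paralog of Rpl3 that is restricted to heart and skeletal muscle, was the main form, at 317 CPM in aged control, against 325 CPM in young (log2 -0.04), while Rpl3 stood at 51.4 and 59.1 CPM (log2 -0.20). Their coding sequences are 73.2% identical and no 50-base word of the Rpl3l transcript occurs in another annotated gene, so reads of Rpl3l can be told from those of Rpl3. Rpl3 itself shares 85.6% of its 50-base words with other genes, most of them with Rpl3-ps1. Its 2 named copies held 12.6 CPM in aged EPA, 9.71 CPM in aged control and 15.1 CPM in young, and the ratios that follow leave them out. Per kilobase of transcript, Rpl3l exceeded Rpl3 by 7.04 times in aged EPA, 6.05 times in aged control and 5.41 times in young. Rps27l, a p53-responsive paralog of Rps27, stood at 29.5 CPM in aged control, against 41.3 CPM in young (log2 -0.47). The X-linked Rps4x exceeded its copy Rps4l in every library, with Rps4x at 178 CPM in aged control, against 210.05 CPM in young, and Rps4l at 4.30 and 5.48 CPM.

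Ribosomal protein mRNAs are short, and other short transcripts were also lower on median in aged control than in young. Across the 12966 compared genes the log2 change rose with the median length of the annotated transcripts (Spearman's rho 0.29, across genes, which share libraries and are not independent), and across the 82 genes rho was 0.47. Under 600 nt, the median log2 change was -0.40 for 24 ribosomal protein genes and -0.20 for 484 other genes. From 600 to 1000 nt it was -0.28 for 40 ribosomal protein genes and -0.14 for 958 others, and from 1000 to 1500 nt -0.20 for 12 and -0.06 for 1444. In each of these 3 length classes the ribosomal protein genes lay below other genes of like length, and the gap was smaller than that to all genes. At least 1.2-fold lower were 41.9%, 25.4% and 18.8% of the other genes in the 3 classes, from short to long. Of the ribosomal protein genes, 79.2%, 52.5% and 33.3% were. With the length trend over all genes subtracted, the median log2 change was -0.14 and 17 of 82 genes were at least 1.2-fold lower, where 12.1% of all compared genes were.

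**Figure D2:**
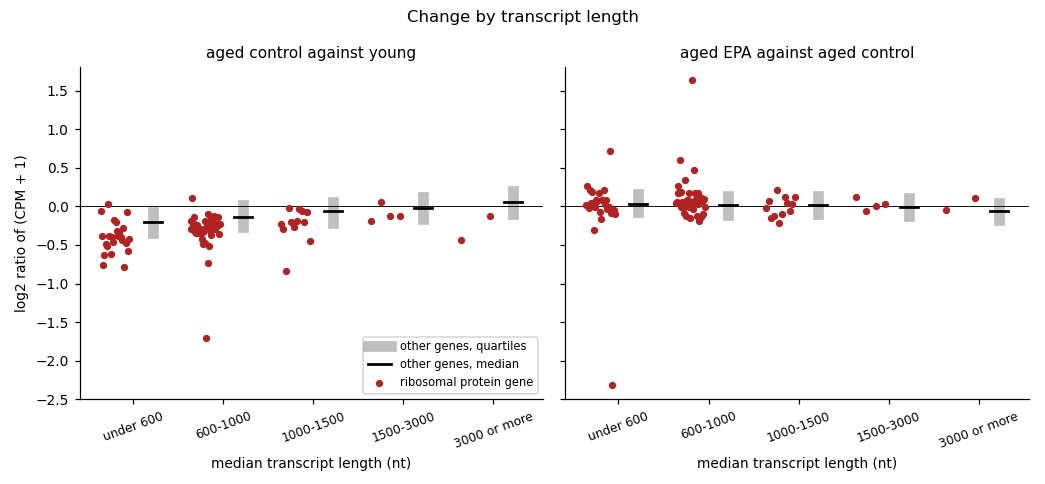
Log2 ratio of (CPM + 1) by class of median annotated transcript length (nt), for each ribosomal protein gene (points) and for other compared genes (black line, median; grey bar, quartiles), in aged control against young (left) and aged EPA against aged control (right). In aged control against young the median under 600 nt is -0.40 for ribosomal protein genes and -0.20 for other genes; in aged EPA against aged control both lie near 0 (0.03 and 0.04).

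With EPA in the diet, the group stood close to aged control. The 82 genes took 1.07% of all counts in aged EPA and 0.999% in aged control, and summed to 10542 and 10128 CPM. The median log2 change of (CPM + 1) was 0.04, beside -0.03 for all compared genes, with 50 genes higher and 32 lower, where 44.2% of all compared genes were higher and 55.8% lower. It was 0.09 with whole counts divided by the library total, beside 0.01 for all genes, and -0.00043 with the length trend subtracted, so its sign depends on that choice. At least 1.2-fold higher in aged EPA were 7 of 82 (8.54%), where 8.08% of all compared genes were called, and 2 of 82 (2.44%) were at least 1.2-fold lower, where 11% of all were. The share of higher calls lay near that of all genes. Past 1.5-fold, 3 genes were higher (1.69% of all compared genes) and 1 lower (1.91%). Small subunit genes had a median log2 change of 0.07 (19 of 30 higher) and large subunit genes one of 0.04 (26 of 43 higher). The 3 stalk genes were higher by small amounts, Rplp0 at 587 CPM in aged EPA and 575 CPM in aged control (log2 0.03), Rplp1 at 281 and 269 CPM (log2 0.06) and Rplp2 at 86.2 and 76.3 CPM (log2 0.17).

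Single genes stood out more than the group. Rpl7a was at 34.1 CPM in aged EPA, 10.3 CPM in aged control and 35.9 CPM in young, so aged control alone was low (aged EPA against aged control, log2 1.63; count ratio on the log2 scale 1.78, with a 95% interval from counting of 1.65 to 1.92). Rps27 had the same order, with 115 CPM in aged EPA, 69.6 CPM in aged control and 120.4 CPM in young (log2 0.71). Its reads can hardly be told from those of its copy Rps27rt, and summed the pair changed by log2 -0.02, as set out below. Rps10 followed with 86.1 CPM in aged EPA, 61.7 CPM in aged control and 103.7 CPM in young (log2 0.48). Since both comparisons use the aged control library, a low value there alone gives opposite signs in them.

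Rpl15, another large subunit gene mutated in some human anaemias of the Diamond-Blackfan type, was higher in aged EPA than in both other libraries. It stood at 90.1 CPM in aged EPA, 58.9 CPM in aged control and 64.7 CPM in young (aged EPA against aged control, log2 0.61; count ratio on the log2 scale 0.68, with a 95% interval from counting of 0.62 to 0.75). Rpl11 was likewise highest in aged EPA, with 126 CPM there, 104.6 CPM in aged control and 96.7 CPM in young (log2 0.27). It shares 62.2% of its 50-base words with other genes but has no copy named -ps, so adding such copies could not alter its values. Rpl28 stood at 138 CPM in aged EPA and 109 CPM in aged control (log2 0.34), and Rpl30 at 65.2 and 54.01 CPM (log2 0.27). Smaller positive changes were those of Rpl36 (76.8 and 66.1 CPM, log2 0.21) and Rpl23 (82.5 and 71.2 CPM, log2 0.21).

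Among the lower values, Rps27rt, a retroposed copy of Rps27, was at 10.9 CPM in aged EPA, 58.2 CPM in aged control and 61.5 CPM in young, so aged EPA alone was low (aged EPA against aged control, log2 -2.31; count ratio on the log2 scale -2.35, with a 95% interval from counting of -2.47 to -2.22). That interval does not cover the assignment of reads shared with Rps27, and the sum of both rows changed by log2 -0.02. Rpl37rt, annotated as a transcribed processed pseudogene, stood at 10.9 CPM in aged EPA and 13.6 CPM in aged control (log2 -0.30). These 2 were the genes called at least 1.2-fold lower, and both are copies. The next were Rpl27a (107 CPM in aged EPA and 124 CPM in aged control, log2 -0.21), Rps27a (38.3 and 43.9 CPM, log2 -0.19), Rps12 (32.5 and 36.6 CPM, log2 -0.17), Rpl39 (34.2 and 38.1 CPM, log2 -0.15), Rpl17 (8.96 and 10.03 CPM, log2 -0.15), Rps4l (3.81 and 4.30 CPM, log2 -0.14), Rpl21 (28.4 and 31.1 CPM, log2 -0.13) and Rpl29 (102.6 and 112 CPM, log2 -0.13). The sign of Rpl21 turned when its 12 named copies were added (55.9 CPM in aged EPA and 53.6 CPM in aged control, log2 0.06), as did that of Rps27a with its copies (47.3 and 47.1 CPM, log2 0.01).

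**Figure D3:**
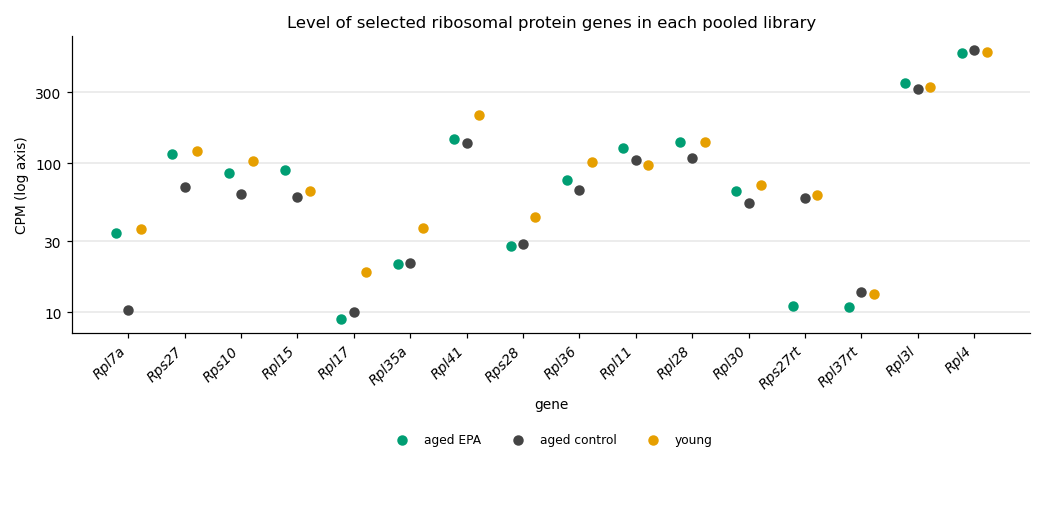
CPM (log axis) of 16 ribosomal protein genes in the pooled aged EPA, aged control and young libraries, 1 point per library. Aged control alone is low for Rpl7a and Rps27, young alone is high for Rpl17, Rpl35a, Rpl41 and Rps28, and aged EPA alone is low for Rps27rt. Reads of Rps27 and Rps27rt can hardly be told apart, and their sum is 125.8 CPM in aged EPA and 127.8 CPM in aged control.

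Many ribosomal protein genes have near-identical copies elsewhere in the genome, and the part of shared sequence in the values above was not tested. Of the 82 genes, 40 share at least 50% of the 50-base words of their main transcript with other annotated genes (GENCODE M21). The median log2 change in aged control against young was -0.27 for these 40 and -0.29 for the 42 below that share, and in aged EPA against aged control 0.04 and 0.06. The spread differed more: the standard deviation of the log2 change in aged control against young was 0.31 among the 40 and 0.16 among the 42. In aged EPA against aged control it was 0.49 among the 40 and 0.13 among the 42. Past 1.5-fold lower in aged control against young were 6 of the 40 and 1 of the 42, beside 2.55% of all compared genes. Each of the genes past 1.5-fold in aged EPA against aged control (Rpl7a, Rps27, Rpl15 and Rps27rt) belongs to the 40.

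The protein-coding bases of Rps27 recur without a difference in Rps27rt. The sequences below are coding sequences from GENCODE M21 (GRCm38), 5′ to 3′, for Rps27 (gene at chr3:90212522-90213651, minus strand) and Rps27rt (gene at chr9:114982366-114982739, minus strand), which share 255 of 255 bases and are printed once, and for Rps27l (gene at chr9:66946086-66949516, plus strand). Capitals mark the 61 bases at which Rps27l differs from both.
Rps27 and Rps27rt: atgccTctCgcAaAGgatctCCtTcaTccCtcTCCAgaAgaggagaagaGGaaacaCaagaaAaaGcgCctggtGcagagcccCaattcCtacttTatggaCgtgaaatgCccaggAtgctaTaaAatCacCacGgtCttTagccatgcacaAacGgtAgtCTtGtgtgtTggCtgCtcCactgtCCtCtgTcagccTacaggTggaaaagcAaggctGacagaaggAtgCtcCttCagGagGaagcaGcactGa
Rps27l: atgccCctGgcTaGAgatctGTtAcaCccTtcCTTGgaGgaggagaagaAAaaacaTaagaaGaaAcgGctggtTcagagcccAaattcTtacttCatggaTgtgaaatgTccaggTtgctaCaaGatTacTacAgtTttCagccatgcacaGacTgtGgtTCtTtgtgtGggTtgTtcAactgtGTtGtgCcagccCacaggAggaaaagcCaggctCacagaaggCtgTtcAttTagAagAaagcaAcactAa
Over the whole transcript, 292 of the 296 50-base words of Rps27 also occur in Rps27rt. Reads of the pair can thus hardly be told apart, and how the authors assigned such reads is not given in the sources used here. Summed, Rps27 and Rps27rt gave 125.8 CPM in aged EPA, 127.8 CPM in aged control and 181.8 CPM in young. The sum differed little between aged EPA and aged control (log2 -0.02), where the separate rows gave 0.71 and -2.31, and it was lower in both aged libraries than in young (log2 -0.51 for aged control and -0.53 for aged EPA).

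For other families the copies named -ps were added to their gene. Rpl7a shares 81.2% of its 50-base words, most of them with Rpl7a-ps11, and its 8 named copies summed to 58.9 CPM in aged EPA, 55.3 CPM in aged control and 65.2 CPM in young. Gene and copies together gave 93.02, 65.7 and 101.1 CPM in aged EPA, aged control and young, so aged control stayed lowest (log2 -0.61 against young, and 0.50 for aged EPA against aged control). Rpl15 with its 4 copies came to 126.4 CPM in aged EPA, 105.9 CPM in aged control and 117.7 CPM in young, and the log2 change in aged EPA against aged control was then 0.25. Rps10 with its copies gave 133, 105.3 and 159.7 CPM in aged EPA, aged control and young (log2 0.34 and, for aged control against young, -0.60). With the copies added, the changes in aged EPA against aged control were smaller, and the order of the libraries stayed the same for these 3 genes. Genes that share words but are not named -ps were left out of these sums, so mixed reads are only partly covered. Rpl7a shares words with 120 other genes. Of the 418 shared words of Rps10, 410 occur in the read-through gene RPS10-NUDT3, for which no CPM is given.

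Rpl17 is the member with the largest excess of copies over gene. Its own row held 8.96 CPM in aged EPA, 10.03 CPM in aged control and 18.7 CPM in young, against 110.4, 109.4 and 132 CPM in its 7 named copies. With them the log2 change in aged control against young was -0.34, near the median of the group. Rpl35a with its 6 copies changed by -0.53 in that comparison, against -0.76 alone. Rps27a-ps2 was low in aged control alone, at 9.02 CPM in aged EPA, 3.19 CPM in aged control and 8.999 CPM in young. Taken as a class, 84 named copies were compared, and 80 of them were lower in aged control than in young (median log2 -0.24), where 52.4% of all compared genes were lower. This is the direction of their parent genes, with whose reads theirs may be mixed.

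**Figure D4:**
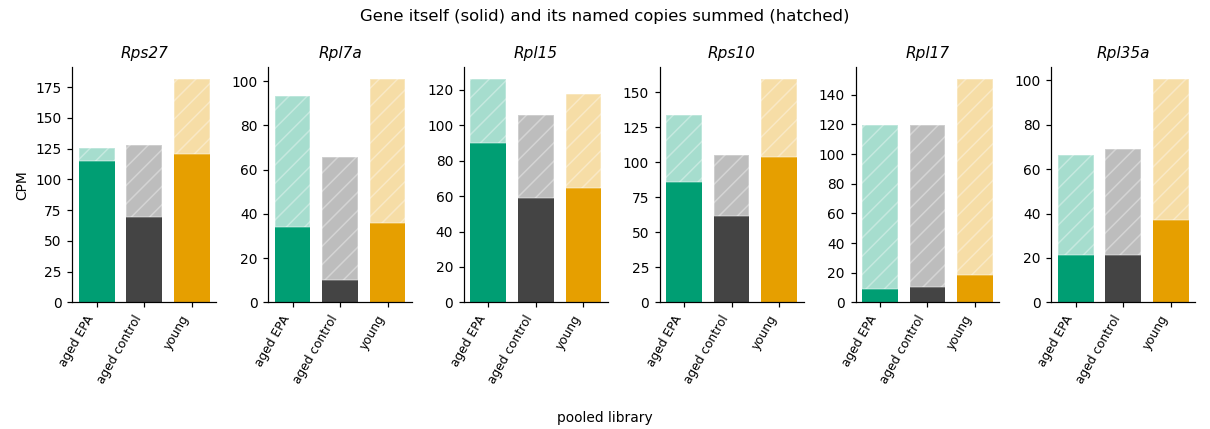
CPM of 6 ribosomal protein genes (solid) with the summed CPM of their named copies stacked on top (hatched; for Rps27 the copies include Rps27rt) in the pooled aged EPA, aged control and young libraries. Rps27 with its copies reaches like heights in aged EPA and aged control, while Rpl7a with its copies stays lowest in aged control; most of the Rpl17 bars are copies.

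A second source of uncertain assignment is overlap. Exons of 37 of the 82 genes overlap exons of another annotated gene, most often snoRNA genes on the same strand or protein-coding neighbours on the opposite strand, and in 8 the overlap covers at least 20% of the exonic bases. Rps10 is one of the 8, since an annotated read-through gene (RPS10-NUDT3) covers 20.6% of its exonic bases. Tlcd1 lies opposite Rpl23a over 59.7% of the exonic bases of Rpl23a, and stood at 8.70 CPM in aged EPA, 8.79 CPM in aged control and 9.87 CPM in young, where Rpl23a stood at 94.5, 93.4 and 97.1 CPM. Whether strand was used in counting is not given in the sources used here.

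Aged EPA against young resembled aged control against young, with which it shares the young library. The median log2 change was -0.25, beside -0.04 for all compared genes, and 78 of 82 genes were lower, where 56.7% of all compared genes were, and 4 higher, where 43.3% were. At least 1.2-fold lower in aged EPA were 40 of 82 (48.8%), where 16.2% of all compared genes were called, and 2 (Rpl15 and Rpl11) were at least 1.2-fold higher, where 10.3% of all were. Past 1.5-fold, 5 genes were lower (2.96% of all compared genes) and none higher (2.4%). Among small subunit genes, Rps28 (27.8 CPM in aged EPA and 43.6 CPM in young, log2 -0.63) and Rps29 (87.5 and 126.1 CPM, log2 -0.52) had the largest changes. Among large subunit genes these were Rpl17 (8.96 and 18.7 CPM, log2 -0.98), Rpl35a (21.1 and 36.9 CPM, log2 -0.78), Rpl39 (34.2 and 53.5 CPM, log2 -0.63) and Rpl41 (144 and 210.2 CPM, log2 -0.54). Over all 3 libraries, 46 genes ran young, aged EPA, aged control from high to low and 30 ran young, aged control, aged EPA, so that young was highest in 76 of 82. The remaining 6 had aged EPA or aged control highest.

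The changes were also set out by the TOP-like run, with no test of the difference. In aged control against young the median log2 change was -0.31 for the 40 genes with a run in the start window and -0.22 for the 20 without, and in aged EPA against aged control 0.05 and 0.03. The 22 genes with no RefSeq window had medians of -0.29 and 0.04.

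Levels per kilobase of main transcript, used here to set these genes beside each other, depend on the transcript chosen and spanned a wide range. The mean over the 3 libraries had a median of 136.7 CPM per kb, with quartiles of 102.1 and 206.4. Rplp1 had 605, Rps15 452, Rplp0 434 and Rpl4 365 CPM per kb. At the low end were the copies Rps4l (4.80) and Rpl6l (11.5), then Rpl17 (16.2) and Rpl21 (16.4 CPM per kb), 2 genes with several named copies. The main transcript of Rpl21 has 1856 nt, where the median of its annotated transcripts is 1067 nt. Rps20 had 29.8 CPM per kb, with an annotated main transcript of 3706 nt. The change in aged control against young did not follow this level (Spearman's rho -0.02 over 82 genes in the same libraries).

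Translation factors had medians nearer 0 than the ribosomal proteins in aged control against young. Initiation factors had a median log2 change of -0.01 (33 genes, 2 at least 1.2-fold lower and none higher) and elongation factors one of -0.04 (10 genes, none past 1.2-fold). Of all compared genes, 14.6% were at least 1.2-fold lower and 12.6% higher. Eef2, the translocase of elongation, stood at 1667 CPM in aged EPA, 1469 CPM in aged control and 1501 CPM in young. The 19 other mRNAs known to carry a TOP tract had a median of -0.03, with Naca, a subunit of the nascent chain complex, higher (844 CPM in aged control and 680.0 CPM in young, log2 0.31) and Pabpc1, the poly(A) binding protein, lower (117 and 139 CPM, log2 -0.24). These lists were not matched to the ribosomal protein genes on transcript length.

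Genes that build the ribosome came next. The 42 assembly factors had a median log2 change of -0.08 in aged control against young. At least 1.2-fold lower were 6 (14.3%, beside 14.6% of all compared genes) and higher 1 (2.38%, beside 12.6%). RNA polymerase I with its factors (15 genes) had a median of -0.03. Nop10, of the pseudouridylation complex, stood at 39.2 CPM in aged EPA, 32.2 CPM in aged control and 44.8 CPM in young. The 7 chaperones of single ribosomal proteins had a median of -0.23 in aged control against young, with 6 lower, where 52.4% of all compared genes were. In aged EPA against aged control their median was 0.15, with 6 higher, where 44.2% of all compared genes were. At least 1.2-fold higher there were 3 (42.9%, beside 8.08% of all compared genes). Grwd1, whose yeast counterpart is the chaperone of Rpl3, stood at 15.3 CPM in aged EPA, 11.3 CPM in aged control and 15.1 CPM in young. Rsl24d1, whose yeast counterpart holds the place of Rpl24 during assembly, stood at 16.5 CPM in aged EPA, 8.06 CPM in aged control and 20.9 CPM in young, the pattern of Rpl7a.

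Of ribosome-linked genes whose names do not match, Fau, which encodes Rps30 fused to a ubiquitin-like protein, stood at 72.5 CPM in aged EPA, 69.6 CPM in aged control and 81.4 CPM in young. The 8 genes of that list had a median log2 change of -0.17 in aged control against young. Regulators of mTORC1 and of TOP mRNAs (28 genes) had a median of 0.02, with 5 at least 1.2-fold higher (17.9%, beside 12.6% of all compared genes) and 4 lower (14.3%, beside 14.6%). Rragd, a Rag GTPase that brings mTORC1 to the lysosome, had the largest change of these, at 228.8 CPM in aged EPA, 58.2 CPM in aged control and 213 CPM in young. Ddit4, an inhibitor of mTORC1, stood at 31.6 CPM in aged EPA, 51.3 CPM in aged control and 38.2 CPM in young. Of nascent chain and targeting factors (12 compared genes, median -0.12), Srp14 of the signal recognition particle stood at 49.8 CPM in aged EPA, 24.4 CPM in aged control and 52.3 CPM in young. The 5 snoRNA host genes had a median of -0.20. At least 1.2-fold lower were 2 (40%, beside 14.6% of all compared genes) and higher 1 (20%, beside 12.6%).

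Other large complexes were set beside the ribosome. Mitochondrial ribosomal proteins (77 genes) had a median log2 change of -0.12 in aged control against young. At least 1.2-fold lower were 16, and 63 were lower in all, where 52.4% of all compared genes were. Complex I subunits of the respiratory chain (36 genes) had a median of -0.20 with 12 at least 1.2-fold lower, and proteasome subunits (37 compared genes) one of -0.10 with 5. Lower at any size were 34 of complex I (94.4%) and 28 of the proteasome (75.7%). The share was 81.8% for mitochondrial and 96.3% for cytosolic ribosomal proteins, so complex I was lower almost as widely. The share at least 1.2-fold lower was 54.9% of the cytosolic ribosomal proteins, 20.8% of the mitochondrial ones, 33.3% of complex I and 13.5% of the proteasome, beside 14.6% of all compared genes. With the length trend subtracted, the share of the cytosolic ribosomal proteins was 20.7%, beside 12.1% of all compared genes. The 4 groups were not matched on transcript length. In aged EPA against aged control the medians of the 4 groups were 0.04, -0.02, 0.04 and 0.04. No test of a difference between these groups was made.

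**Figure D5:**
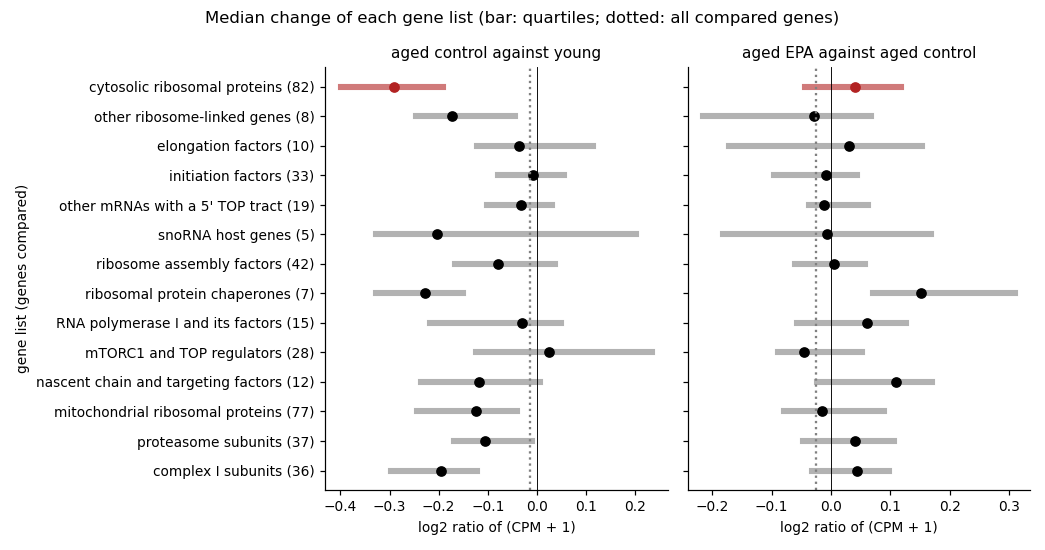
Median (point) and quartiles (bar) of the log2 ratio of (CPM + 1) for each list of genes of protein synthesis and for 3 other complexes, with the number of compared genes, in aged control against young (left) and aged EPA against aged control (right); the dotted line is the median of all compared genes. Cytosolic ribosomal proteins have the lowest median on the left, at -0.29, followed by the chaperones at -0.23.

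The genes whose log2 changes lay closest to those of the summed ribosomal protein level, among 2142 other genes whose mean reached 50 CPM, were Tgm2, Fth1, Tmem109, Ndufb9 and Pla2g12a. Likeness is the Euclidean distance over both changes (aged control against young, aged EPA against aged control) in 3 libraries. Fth1, the ferritin heavy chain, stood at 1373 CPM in aged EPA, 1325 CPM in aged control and 1592 CPM in young. With 3 libraries many genes can share a pattern, and the distance is no sign of shared control.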

How the data were processed

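RNA sequencing of 3 pooled libraries was analysed from the deposited tables of CPM per gene, 1 table per library. Per the submitters' processing notes, HISAT2 2.1.0, StringTie 1.3.4d and R 3.5.0 were used with GRCm38 (mm10); how reads with several matches were assigned is not given in the sources used here. The deposited CPM became whole counts with 1 of 5 divisors per gene (largest distance from a whole number 3.0268e-09), and totals over all genes were 55969822 for aged EPA, 57622886 for aged control and 57386394 for young. The divisors differ between genes and tables, which shifts a log2 change by at most 0.08.

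The 12966 genes whose mean reached 1 CPM were compared as log2 ratios of CPM + 1, a scale that understates changes of low genes. Called means at least 1.2-fold; 1.5-fold was an alternative. With 1 library per group no test was run. Counting intervals are exact (Clopper-Pearson, 95%) on recovered counts. Transcript lengths, 50-base words, overlaps and coding sequences came from GENCODE M21, start windows from RefSeq GRCm38.p6. The main transcript is basic, protein coding, APPRIS principal, in CCDS and lowest in number. Named members were the 10 with the largest positive and negative changes in each of the first 2 comparisons (aged control with young, aged EPA with aged control), the 5 highest and 5 lowest in level, the stalk, Rpsa and the paralogs (41 genes with Rpl10l and Rpl39l), and of other lists those with the largest changes; some others (Rps20, Rps6, Rpl5, Rpl35, Rps29 and Rps15) were named after their values were seen. One gene that this choice names is not reported here. The genes and lists were chosen with earlier results of these data known. Alternatives were other pseudocounts, filters, scalings (median of ratios, TMM, own totals, without abundant genes), copies added or left out, and length or GC trends subtracted (lowess, fraction 0.3). Steps were tested on simulated data. Python 3.11.15, pandas 2.3.3, statsmodels 0.14.6 and Biopython 1.88 were used.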

Additional observations from a re-analysis of the deposited data

How the results depend on the processing

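In aged control against young, no alternative changed the direction of the median, which stayed between -0.31 and -0.27 except with the length trend subtracted (-0.14). The count at least 1.2-fold lower was 45 of 82 (54.9%, beside 14.6% of all compared genes). It was 17 with the length trend subtracted (20.7%, beside 12.1%) and 7 at 1.5-fold (8.54%, beside 2.55%). Of the 42 genes sharing under 50% of their 50-base words (an alternative chosen after seeing the data) it was 25 (59.5%, beside 14.6%). In aged EPA against aged control the median of 0.04 was 0.067 by the median of ratios, 0.065 by TMM, 0.086 with own totals and -0.00043 with the length trend subtracted. The 7 genes at least 1.2-fold higher (8.54%, beside 8.08% of all compared genes) became 4 with copies added (4.94%, beside 8.06%). They became 2 of those 42 genes (4.76%, beside 8.08%) and 3 at 1.5-fold (3.66%, beside 1.69%). The 2 lower became 1 with a pseudocount of 5, with own totals, with copies added, among those 42 genes and at 1.5-fold, and 0 without the l and rt paralogs. Of all compared genes, 4.62% were lower with a pseudocount of 5, 8.55% with own totals, 1.91% at 1.5-fold and 11% in the others. With copies added, 3 named genes changed sign there: Rps27 (log2 -0.023), Rpl21 (0.06) and Rps27a (0.01), of which Rps27 alone had been past 1.2-fold. In aged EPA against young the median of -0.25 was -0.21 with the median of ratios and with TMM, -0.20 with own totals and -0.14 with the length trend subtracted. The 2 higher (2.44%, beside 10.3% of all compared genes) became 1 with copies added (1.23%, beside 10.3%). This 1 was Rpl11, which has no copy named -ps to add. The 2 higher became 0 among those 42 genes and at 1.5-fold (10.3% and 2.4% of all compared genes). The 40 lower (48.8%, beside 16.2%) became 29 by the median of ratios and by TMM (35.4%, beside 13.3%) and 30 with own totals (36.6%, beside 13.5%). They became 17 with the length trend subtracted (20.7%, beside 14.1%), 18 among those 42 genes (42.9%, beside 16.2%) and 5 at 1.5-fold (6.1%, beside 2.96%). The summed level in aged EPA, aged control and young was 10695, 10078 and 11949 CPM by the median of ratios, 10851, 10242 and 12128 by TMM, 17537, 16740 and 20255 without mitochondrial and the 20 most abundant genes, 10690.0, 9994 and 11995 over own totals, 11600, 11161 and 13388 with copies added, and 10134, 9696 and 11670.0 without l and rt paralogs. Except for the stricter fold, fewer genes and added copies, the cause of these moves was not tested. Subtracting the length trend moved 33 of 39 named genes when aged control was set against young, and 9 when aged EPA was set against aged control. No paired analysis was possible because each group has 1 library, and for the same reason no replicate could be left out. A change of a gene near the floor of 3 counts cannot be read at this depth.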
